A study of Mus musculus with 14 samples.

Results

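Respiratory complex I, the NADH:ubiquinone oxidoreductase, is the entry point of the mitochondrial respiratory chain. It oxidises NADH in a matrix arm, passes the electrons along iron-sulfur clusters to ubiquinone, and pumps protons through a membrane arm. The catalytic core is shared between subunits encoded in the nucleus and subunits encoded in mitochondrial DNA, and it is surrounded by accessory subunits and built with the help of dedicated assembly factors. The nuclear genes described here are those whose symbol begins with Nduf in the RNA table, leaving out symbols with -ps, which gave 49 of 55433 genes. They comprise 7 core subunits, 10 accessory subunits of the matrix arm, 20 accessory subunits of the membrane arm, 8 assembly factors of the Ndufaf series and 4 other symbols. The roles given below are those known for mammalian complex I.

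RNA was measured in cells derived from a mouse tumor (strain C57BL/6, passages 6-8), in 3 libraries of cells given a guide RNA against Nsd3 (sgNSD3) and 3 libraries of cells given a control guide RNA (sgControl). Nsd3 encodes a methyltransferase of histone H3 lysine 36. Chromatin samples for H3K36me2 and H3K27me3 were taken from the same 2 conditions, and the design compares the conditions. The labels name neither the tumor type nor the clonality of the cells, and they do not say whether the 3 libraries of a condition were separate cultures. Each p-value therefore reflects only how these libraries scatter, which may be technical. Library numbers follow the sample titles, and the sgNSD3 columns of the deposited table carry other numbers.

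Recovered library totals were 20294828 to 21863833 counts. Nsd3 averaged 21950 ± 94.9 normalized counts in the libraries labelled sgNSD3 and 14550 ± 137 in sgControl (SD, n = 3 each), so the guide's target was higher and not lower at the RNA level. Every direction below therefore rests on the labels of the libraries. Of 5 mesenchymal markers, Vim and Acta2 overlapped between the conditions, with Vim at 50980 to 52290 normalized counts in the libraries labelled sgNSD3 and 50280 to 52340 in sgControl. Fn1, Col1a1 and Pdgfrb were higher in every library labelled sgNSD3 than in every sgControl library. Fn1 had 387900 to 394700 normalized counts in the libraries labelled sgNSD3 and 299300 to 316500 in sgControl, Col1a1 428600 to 431600 in sgNSD3 and 356500 to 415800 in sgControl, and Pdgfrb 785 to 826 in sgNSD3 and 677 to 761 in sgControl. The epithelial marker Epcam was at 0 in all 6 libraries. Hbb-bs and Hba-a1 of red cells and Cd3e of T cells were also at 0 in all libraries, and Ptprc of leukocytes and Cdh5 of endothelium had at most 1.05 normalized counts. Other markers were not absent. The macrophage marker Cd68 had 61.0 to 73.3 normalized counts in the libraries labelled sgNSD3 and 70.0 to 85.2 in sgControl, and Lyz2 of myeloid cells had 6.84 to 12.4 in the libraries labelled sgNSD3 and 14.2 to 20.1 in sgControl. Krt18, an epithelial keratin, had 218 to 243 normalized counts in the libraries labelled sgNSD3 and 295 to 315 in sgControl. The keratin Krt14 had 130.2 to 156.4 in the libraries labelled sgNSD3 and 201.9 to 258 in sgControl. Krt8 had 24.44 to 38.35 in the libraries labelled sgNSD3 and 26.39 to 40.19 in sgControl. Of the other epithelial markers, Cdh1 had at most 5.753 normalized counts in any library and Krt5 at most 0.9569. Kdr, an endothelial receptor, had 175 to 208 in the libraries labelled sgNSD3 and 102.5 to 124 in sgControl. Their part in the results was not tested.

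Of the complex I genes 4 were lower in the libraries labelled sgNSD3, by 1.32-fold or less, and 0 members were called higher. Among the 4 were the matrix-arm subunit Ndufs6 (1.32-fold lower), the membrane-arm subunit Ndufa13 (1.26-fold) and the core subunit Ndufv2 (1.14-fold). Of the 49 members, 47 passed a filter of at least 8 normalized counts on average and were tested; the median of their means was 279.5 normalized counts. The test was limma on the deposited log2 values, adjusted by Benjamini-Hochberg over all 18263 genes tested, with a threshold of 0.05. The 4 lower members make 8.51% of those tested, against a background of 6.44% of all genes called lower, so this share was near the background. The background for higher calls was 5.44%, against 0 of 47 members. At an unadjusted limma p under 0.05, 10 of the 47 tested members were lower and 0 of 47 higher. Of all 18263 genes tested, 2381 (13%) were lower and 2135 (11.7%) higher at this threshold.

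Most members had log2 folds slightly below 0. The log2 fold, taken on log2(normalized count + 1) as sgNSD3 over sgControl, was below 0 for 38 of the 47 tested members and above 0 for 9. Its median was -0.11 over the members and 0.00 over all genes tested, of which 49.8% were below 0. The fold understates changes of genes with few counts. In bulk RNA, fewer transcripts per cell and fewer cells that express a gene cannot be told apart. The libraries did not overlap for 8 members, all lower in sgNSD3, among them Ndufv2, Ndufs6, Ndufa6, Ndufa3, Ndufb4, Ndufc2 and Ndufaf8. That is 17% of the members, against a background of 14.4% of all genes lower without overlap and 14% higher.

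**Figure D1:**
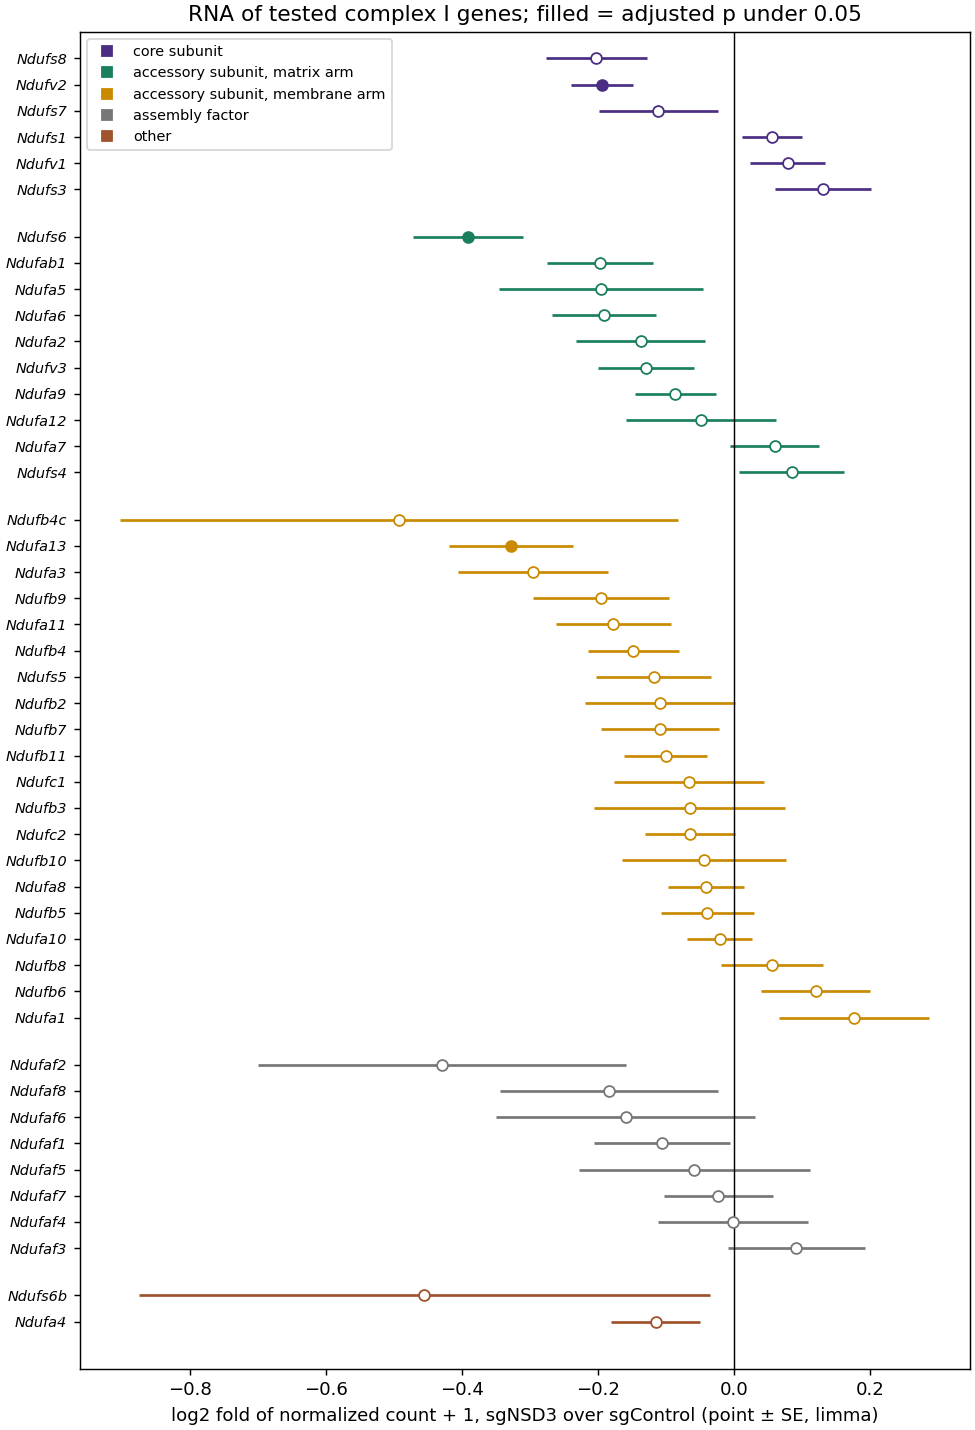
Log2 fold of normalized count + 1 (x axis), libraries labelled sgNSD3 over sgControl, for 46 tested complex I genes (y axis), grouped by class. Points are limma estimates with SE from 3 libraries per condition, and filled points have an adjusted p under 0.05. The 3 filled points lie left of 0, and the estimates run from -0.49 for Ndufb4c to 0.18 for Ndufa1.

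Ndufs6 encodes a zinc-binding accessory subunit of the matrix arm that joins late in assembly together with the NADH-oxidising module. It had 232, 239 and 222 normalized counts in libraries 1, 2 and 3 labelled sgNSD3, against 332, 291 and 287 in sgControl libraries 1, 2 and 3. Every library labelled sgNSD3 was below every sgControl library. Mean normalized counts were 231 ± 8.45 in the libraries labelled sgNSD3 and 303 ± 25 in sgControl (SD, n = 3 each), a log2 fold of -0.39 ± 0.081 (SE; limma adjusted p = 0.00206). Ndufs6 lies on chromosome 13 at 73319876 to 73328482 in GRCm38, and no other RefSeq gene overlaps it. A similar symbol, Ndufs6b, which RefSeq annotates as a pseudogene on chromosome 7, held 2.93 to 9.59 normalized counts in the libraries labelled sgNSD3 and 6.27 to 12.2 in sgControl.

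Ndufv2 encodes a core subunit of the NADH-oxidising module that carries an iron-sulfur cluster. Its normalized counts were 1117, 1038 and 1096 in the libraries labelled sgNSD3 and 1211, 1221 and 1288 in sgControl. The conditions did not overlap, and the spread was similar in both. Mean normalized counts were 1084 ± 40.7 in the libraries labelled sgNSD3 and 1240 ± 41.9 in sgControl (SD, n = 3 each), a log2 fold of -0.19 ± 0.045 (SE; limma adjusted p = 0.00412). The gene lies on chromosome 17 at 66078795 to 66101559, where RefSeq also places Ankrd12 and Gm23264 in part, so reads in the shared bases are uncertain. Its call was lost without sgNSD3 replicate 2 (adjusted p = 0.0509).

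Ndufa13, also known as Grim19, encodes an accessory subunit of the membrane arm that has also been described as a regulator of cell death. It had 228, 273 and 240.5 normalized counts in the libraries labelled sgNSD3, against 348, 316 and 271 in sgControl. The conditions overlapped, since sgNSD3 replicate 2 was marginally above sgControl replicate 3. Mean normalized counts were 247 ± 23.2 in the libraries labelled sgNSD3 and 312 ± 38.6 in sgControl (SD, n = 3 each), a log2 fold of -0.33 ± 0.091 (SE; limma adjusted p = 0.0181). The gene lies on chromosome 8 at 69894163 to 69902558 and overlaps Tssk6 in RefSeq, so reads in the shared bases are uncertain. The call was lost when sgNSD3 replicate 1 or 3 or sgControl replicate 1 or 2 was left out, with adjusted p of 0.119, 0.0779, 0.0947 and 0.063 in that order.

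**Figure D2:**
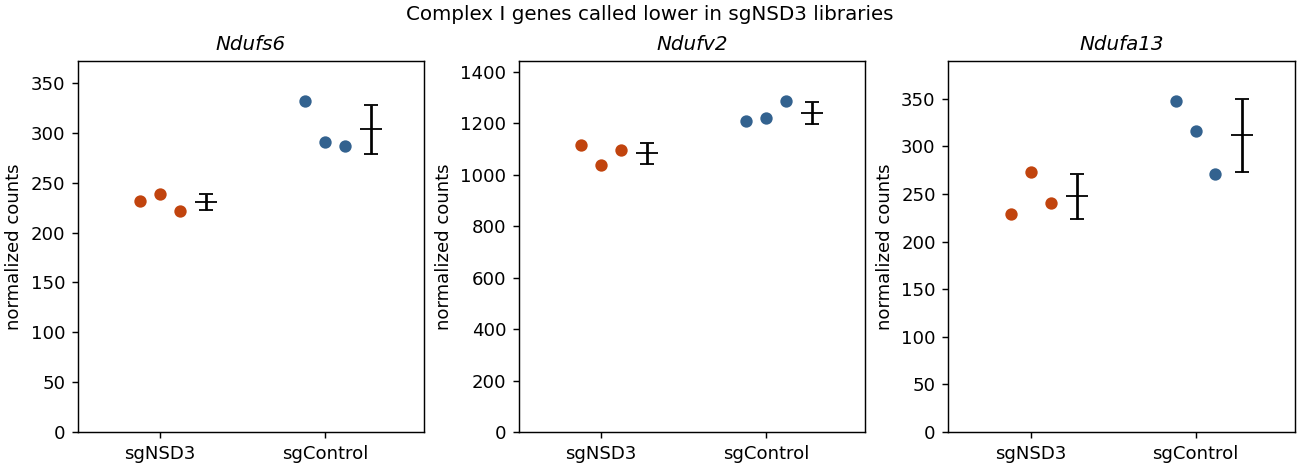
Normalized counts (y axis, from 0) of 3 complex I genes called lower, in 3 libraries labelled sgNSD3 (left, libraries 1 to 3) and 3 sgControl libraries (right). Dots are libraries, and the black mark is the mean with SD. Ndufs6 and Ndufv2 do not overlap between conditions, while Ndufa13 does.

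Promoters of the members were read from RefSeq (GRCm38.p6), 250 bases before to 50 bases after the start that each entry uses. Entries matched 40 of the 49 members. The entry start was the outer end of the annotated gene in 31 of 42 member entries and lay inside the gene in 11, by 538 bases for Ndufa13 and 344 bases for Ndufs7, the only 2 over 200 bases. The window of Ndufa13 therefore lies inside the gene as annotated, and the sequence before its outer end was not searched. The 3 promoters below belong to Ndufs6, Ndufv2 and Ndufa13, which were called lower, and they are printed 5′ to 3′ on the gene's strand with the searched YY1 letters in capitals. They lie at chr13:73328433-73328732 for Ndufs6, chr17:66101510-66101809 for Ndufv2 and chr8:69901971-69902270 for Ndufa13, each on the minus strand.
Ndufs6: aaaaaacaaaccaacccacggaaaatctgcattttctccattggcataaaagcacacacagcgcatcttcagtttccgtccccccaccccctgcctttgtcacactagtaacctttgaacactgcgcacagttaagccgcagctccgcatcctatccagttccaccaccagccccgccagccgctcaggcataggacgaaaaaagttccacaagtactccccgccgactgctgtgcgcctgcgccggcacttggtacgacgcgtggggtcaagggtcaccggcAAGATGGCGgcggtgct
Ndufv2: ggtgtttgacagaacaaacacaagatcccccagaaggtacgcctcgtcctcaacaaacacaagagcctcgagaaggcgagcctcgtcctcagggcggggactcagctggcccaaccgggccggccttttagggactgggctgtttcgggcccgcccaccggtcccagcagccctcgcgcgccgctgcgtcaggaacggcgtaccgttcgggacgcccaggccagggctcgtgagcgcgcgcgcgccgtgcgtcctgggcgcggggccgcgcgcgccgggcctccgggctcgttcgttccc
Ndufa13: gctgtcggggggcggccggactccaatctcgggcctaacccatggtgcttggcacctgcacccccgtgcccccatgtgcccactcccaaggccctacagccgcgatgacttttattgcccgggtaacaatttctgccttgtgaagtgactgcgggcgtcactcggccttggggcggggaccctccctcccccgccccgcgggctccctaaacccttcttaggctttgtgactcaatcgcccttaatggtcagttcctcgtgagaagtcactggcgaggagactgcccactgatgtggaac

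The motifs of 3 factors known for respiratory gene promoters were searched on both strands: AAGATGGCG for YY1, GCGCATGC for NRF1 and CCGGAAGT for ETS factors such as GABPA. The YY1 letters were in the promoters of 6 members, which is 15% of the 40, against 1.64% of 27025 genes with a promoter. Over promoter entries the shares were 14.3% of 42 for the members, 2.73% of 14263 for genes tested in RNA and 1.4% of 32851 in all. All 6 matches were on the gene's own strand and began 10 to 35 bases after the start of their entry. Such matches after the entry start were in 14.3% of member entries, 1.4% of entries of tested genes and 0.636% of all. The matches are shown with up to 10 bases on either side to let their contexts be compared, with the motif in capitals.
Ndufs6: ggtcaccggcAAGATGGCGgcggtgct
Ndufs4: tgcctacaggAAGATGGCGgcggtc
Ndufs7: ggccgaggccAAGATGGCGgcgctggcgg
Ndufa9: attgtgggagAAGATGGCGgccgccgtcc
Ndufc1: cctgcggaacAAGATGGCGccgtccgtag
Ndufaf8: ggcagggcccAAGATGGCGgcgccctcga

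Of these 6 genes, Ndufs6 was called lower, and the log2 folds of the others were 0.09 for Ndufs4, -0.11 for Ndufs7, -0.09 for Ndufa9, -0.07 for Ndufc1 and -0.18 for Ndufaf8. The NRF1 letters were in the promoters of 5 members, or 12.5%, against 3.05% of all genes and, by entry, 4.76% of those tested in RNA. In Ndufa11, Ndufaf4 and Ndufaf5 the match on the gene's strand overlaps a match on the other strand, so that the capitals run on for longer. The first match of each gene is shown in the same way.
Ndufa6: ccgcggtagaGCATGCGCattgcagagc
Ndufa8: cgctggagacGCATGCGCagatggtacc
Ndufa11: cctgcactgcGCGCATGCGCgcacgcct
Ndufaf4: ccagatgtctGCGCATGCGCctgtgcgg
Ndufaf5: agtcccgttgGCGCATGCGCctaataga

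None of these 5 genes was called, and their log2 folds lay between -0.19 for Ndufa6 and -0.00 for Ndufaf4. The ETS letters were in 1 member promoter, that of Ndufs3, or 2.5% of members against 4.31% of all genes. By entry the shares were 2.38% for the members and 7.33% for genes tested in RNA. A match is a description of these letters and not a binding site, and no match says only that the letters are not in this window. No YY1, NRF1 or ETS match was found in the printed windows of Ndufv2 and Ndufa13.

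Of the core subunits Ndufs8, Ndufs7, Ndufs1, Ndufv1 and Ndufs3, 2 had log2 folds below 0 and 3 above, and none was called. Ndufs8, an iron-sulfur subunit next to the ubiquinone site, had 563, 515 and 531 normalized counts in the libraries labelled sgNSD3, against 712, 613 and 537 in sgControl (log2 fold -0.20 ± 0.074, SE; limma adjusted p = 0.0721). The sgControl libraries of Ndufs8 were widely spread, and without sgControl replicate 3 it was called (adjusted p = 0.00461). Ndufs7, which carries the last iron-sulfur cluster before ubiquinone, had 284, 319 and 291 normalized counts in the libraries labelled sgNSD3, against 374, 284 and 314 in sgControl (adjusted p = 0.468). Ndufs1, the largest matrix-arm subunit, had 1216, 1307 and 1304 normalized counts in the libraries labelled sgNSD3, against 1180, 1258 and 1241 in sgControl (adjusted p = 0.469). Both of these genes overlapped between the conditions.

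Ndufv1 and Ndufs3 also had means slightly above those of sgControl. Ndufv1, which binds NADH and the flavin cofactor, had 953, 986 and 978 normalized counts in the libraries labelled sgNSD3, against 974, 970.3 and 825 in sgControl (limma adjusted p = 0.411). Ndufs3, a structural subunit of the matrix arm, had 412, 403 and 380.3 normalized counts in the libraries labelled sgNSD3, against 355, 399 and 339 in sgControl (adjusted p = 0.278). Its log2 fold of 0.13 ± 0.071 (SE) was the second largest above 0. Ndufv1 and its partner Ndufv2, which together begin electron transfer from NADH, thus had log2 folds of 0.08 ± 0.055 and -0.19 ± 0.045 (SE), and the difference between these genes was not tested. Without sgControl replicate 3 the log2 fold was 0.000 for Ndufv1 (limma adjusted p = 0.999) and -0.166 for Ndufv2 (adjusted p = 0.0229).

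In the matrix arm, 8 of 10 accessory subunits had log2 folds below 0, and Ndufs6 was the only one called by limma. Ndufab1, the mitochondrial acyl carrier protein, had 345, 335 and 403 normalized counts in the libraries labelled sgNSD3, against 444, 423 and 374 in sgControl (adjusted p = 0.11). Ndufa6 had 277, 267 and 264 normalized counts in the libraries labelled sgNSD3, against 330.1, 288 and 306 in sgControl (adjusted p = 0.119). Ndufa6 did not overlap between the conditions, while Ndufab1 did. Ndufs4, which is needed for a stable NADH module, was on the other side of 0, with a log2 fold of 0.09 ± 0.077 (SE; adjusted p = 0.555). Ndufa7 also lay above 0 (0.06 ± 0.065, SE; adjusted p = 0.647), and the remaining folds of this arm were between -0.20 for Ndufa5 and -0.05 for Ndufa12.

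In the membrane arm, 17 of 20 accessory subunits had log2 folds below 0, and Ndufa13 alone was called by limma. Ndufa3 had 149.9, 174 and 166 normalized counts in the libraries labelled sgNSD3, against 179, 237 and 189 in sgControl (adjusted p = 0.0768). All 3 values were below the sgControl values, which were spread by sgControl replicate 2. Folds above 0 were seen for Ndufa1, a small X-linked subunit (0.18 ± 0.11, SE; adjusted p = 0.356), Ndufb6 (0.12 ± 0.08, SE; adjusted p = 0.398) and Ndufb8 (0.06 ± 0.075, SE; adjusted p = 0.718). Ndufa1 had 149, 129 and 164 normalized counts in the libraries labelled sgNSD3, against 137, 131 and 121 in sgControl. Ndufb6 had 339, 326 and 297 normalized counts in the libraries labelled sgNSD3, against 265, 319 and 302 in sgControl. Both genes overlapped between the conditions. Ndufb4 and Ndufc2 did not overlap between the conditions but were not called. Ndufb4 had 388, 366 and 359 normalized counts in the libraries labelled sgNSD3, against 393, 436 and 405 in sgControl (adjusted p = 0.175). Ndufc2 had 353, 362 and 358 normalized counts in the libraries labelled sgNSD3, against 388, 369 and 366 in sgControl (adjusted p = 0.615). The lowest fold belonged to Ndufb4c, at 3.83 to 11.7 normalized counts in the libraries labelled sgNSD3 and 6.7 to 12.2 in sgControl, and the difference was within the spread of these few counts (-0.49 ± 0.41, SE; adjusted p = 0.54). Ndufb4c resembles Ndufb4 by symbol, and reads of such copies are uncertain.

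None of the 8 Ndufaf assembly factors was called, in either direction, and none reached an unadjusted p under 0.05 (limma). Their log2 folds ran from -0.43 for Ndufaf2 to 0.09 for Ndufaf3, with a median of -0.08, and 7 of 8 were below 0. Ndufaf2, which acts on a late intermediate, had 17.6, 20.1 and 18.6 normalized counts in the libraries labelled sgNSD3, against 34.5, 29.7 and 16.2 in sgControl (adjusted p = 0.304). Of the sgControl libraries, 2 were above and 1 was below all libraries labelled sgNSD3. Ndufaf3 and Ndufaf4, partners in building the ubiquinone module, had log2 folds of 0.09 ± 0.1 and -0.00 ± 0.11 (SE). Ndufaf5 and Ndufaf7, which modify arginines of core subunits, had folds of -0.06 ± 0.17 and -0.02 ± 0.08 (SE). Ndufaf1, of the membrane-arm assembly complex, was at -0.10 ± 0.1, Ndufaf6 at -0.16 ± 0.19, and Ndufaf8, which stabilises Ndufaf5, at -0.18 ± 0.16 (SE). Ndufaf8 did not overlap between the conditions, with 50.6, 61.4 and 62.6 normalized counts in the libraries labelled sgNSD3, against 70.0, 63.2 and 65.0 in sgControl.

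The 4 other symbols included 2 that did not pass the level filter. Ndufa4, since reassigned to complex IV, had 519, 546 and 469 normalized counts in the libraries labelled sgNSD3, against 563, 585 and 513 in sgControl (log2 fold -0.11 ± 0.065, SE; limma adjusted p = 0.295). Ndufa4l2, a relative of Ndufa4 known as a hypoxia-induced gene, had 1.03, 2.88 and 4.89 normalized counts in the libraries labelled sgNSD3, against 9.4, 4.78 and 4.06 in sgControl. Both genes overlapped between the conditions, and Ndufa4l2 was not tested. Ndufa11b, which RefSeq lists as a transcribed pseudogene, was not tested either, at 1.96 to 4.13 normalized counts in the libraries labelled sgNSD3 and 0.957 to 8.12 in sgControl.

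A sgControl library bears on these comparisons. sgControl replicate 3 was the lowest of the 3 sgControl libraries for 57.4% of the tested members, against 32.7% of all genes tested, and it was the highest for 17% of them. Relative to the mean of sgControl, the median member stood at -0.11, -0.05 and -0.10 (log2) in libraries 1, 2 and 3 labelled sgNSD3, and at 0.03, 0.04 and -0.08 in sgControl. Scaled to reads per 1000000, the members together took 839, 859.6 and 846 in the libraries labelled sgNSD3, and 895, 919 and 872 in sgControl. The conditions did not overlap in this measure, but sgControl replicate 3 came closest to the libraries labelled sgNSD3. In summed normalized counts the conditions did overlap, at 17599, 18021 and 17762 in the libraries labelled sgNSD3 and 19183, 19129 and 17989 in sgControl. Without sgControl replicate 3, 7 members were called lower, among them Ndufs6, Ndufs8, Ndufv2, Ndufa11, Ndufa13 and Ndufab1. Of all 18263 genes tested, 1145 were called lower without this library, against 1176 in the main fit. Without any 1 of the other libraries, 2 or 3 members were called lower, and 707 to 1164 of all genes. In each of these fits 0 members were called higher.

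**Figure D3:**
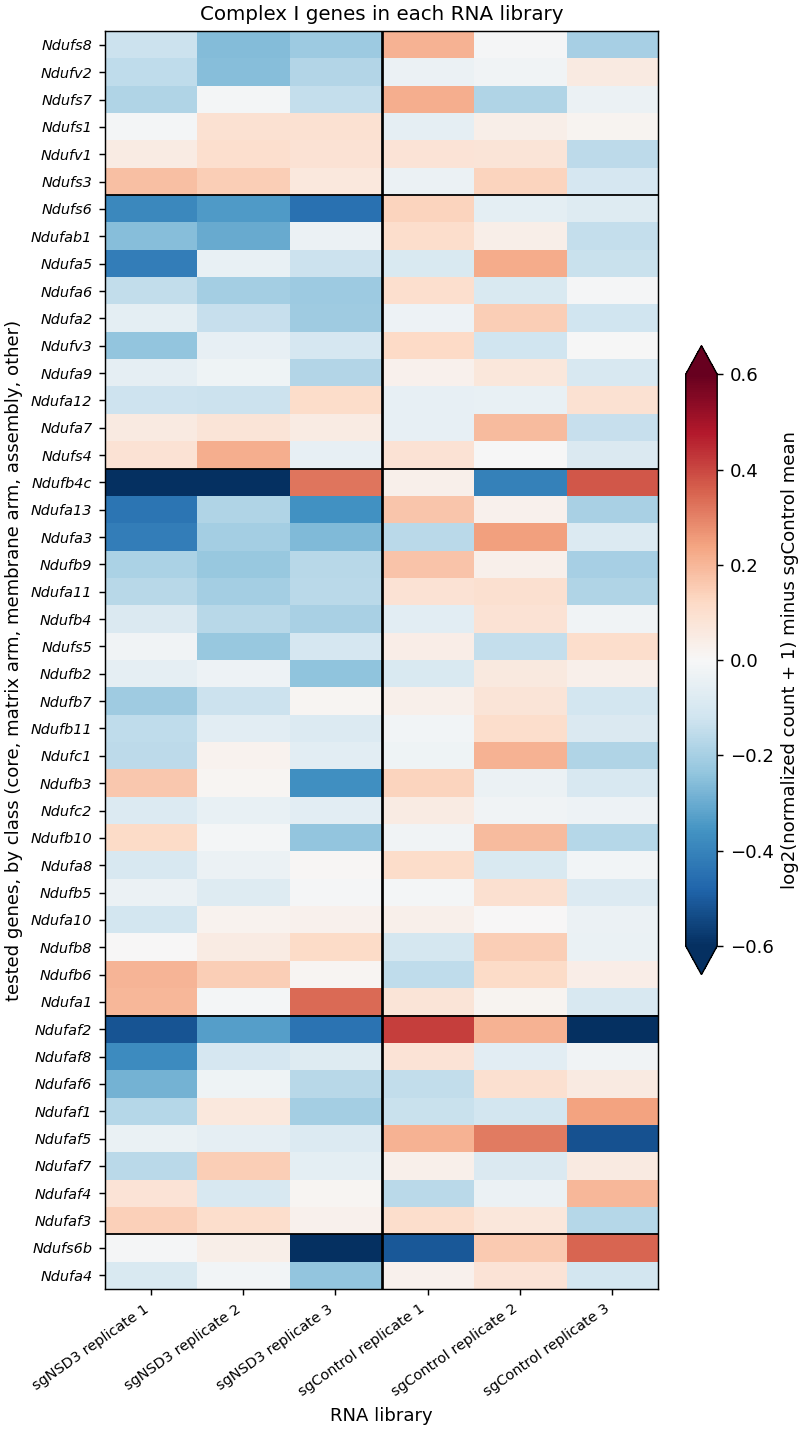
Level of tested complex I genes (y axis, 46 genes by class) in each RNA library (x axis), as log2(normalized count + 1) minus the mean of the sgControl libraries, with the colour scale limited to ±0.6. The libraries labelled sgNSD3 are mostly blue, and the column of sgControl replicate 3 is bluer than those of sgControl replicates 1 and 2.

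Shares of other RNAs also differed between libraries. RNA from mitochondrial protein genes took 0.654%, 0.674% and 0.637% of counts in the libraries labelled sgNSD3, and 0.651%, 0.808% and 0.864% in sgControl. The noncoding RNA Gm26917 took 7.66% to 7.81% of counts in the libraries labelled sgNSD3 and 6.65% to 8.7% in sgControl. Complex I genes are also short: the median genomic span of the 47 tested members was 7690 bases, against 19209 for the 15293 tested genes with a RefSeq span. Of the 4143 tested genes with a span up to 7690 bases, 2.2% were called higher and 7.89% lower, against 7.12% and 6.84% of the 11150 longer genes. The part of these measures in the results was not tested.

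The complex I subunits encoded in mitochondrial DNA were lower in the libraries labelled sgNSD3. All 6 that passed the level filter were called lower, against a background of 6.44% of all genes. None of the 6 overlapped between the conditions, against 14.4% of all genes lower without overlap. Their median log2 fold was -0.57, against -0.11 for the 37 nuclear subunits. Of these 6, mt-Nd4l had few counts. It had 5.17, 12.5 and 6.84 normalized counts in the libraries labelled sgNSD3, against 17.8, 16.3 and 16.2 in sgControl (limma adjusted p = 0.0455). mt-Nd1, which lines the ubiquinone channel, had 3456, 3669 and 3252 normalized counts in the libraries labelled sgNSD3, against 4706, 5460 and 5662 in sgControl, and averaged 3459 ± 208 normalized counts in the libraries labelled sgNSD3 and 5276 ± 504 in sgControl (SD, n = 3 each; limma adjusted p = 2.04e-09). mt-Nd6, the subunit encoded on the opposite strand of the mitochondrial genome, averaged 1999 ± 202 normalized counts in the libraries labelled sgNSD3 and 2670 ± 605 in sgControl (SD, n = 3 each; log2 fold -0.40 ± 0.089, SE; adjusted p = 0.00277). Its conditions were narrowly apart, with sgNSD3 replicate 2 at 2161 and sgControl replicate 1 at 2200 normalized counts. sgControl replicate 1 was also the lowest sgControl library for mt-Nd1, mt-Nd2, mt-Nd4 and mt-Nd5, but not for mt-Nd4l. It had 2107 normalized counts for mt-Nd2 and 3061 for mt-Nd4, against at most 1939 and 2905 in the libraries labelled sgNSD3. The difference between nuclear and mitochondrial subunits was not tested. mt-Nd3 had 1.92 to 5.17 normalized counts in the libraries labelled sgNSD3 and 3.04 to 5.22 in sgControl and was not tested.

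Of 40 tested nuclear genes of complexes II to V with cytochrome c, 7 were called lower and 0 higher, which is 17.5% lower, against the background of 6.44% lower and 5.44% higher among all genes. By list the share called lower was 20% for complex III with cytochrome c, 18.2% for complex IV and 20% for complex V. Of 8 complex I assembly factors with other names in the table, 1 was lower: Ecsit, a partner of Ndufaf1, averaged 236 ± 16.7 normalized counts in the libraries labelled sgNSD3 and 289 ± 33.5 in sgControl (SD, n = 3 each; limma adjusted p = 0.0375). Ecsit overlapped marginally, with sgNSD3 replicate 1 at 251.1 and sgControl replicate 3 at 250.7 normalized counts. Among these 8 assembly factors, 4 log2 folds were below 0 and 4 above, with a median of -0.05. None of 4 complex II genes was called. Of 10 genes of complex III and cytochrome c 2 were lower, Cycs (log2 fold -0.57 ± 0.089, SE) and Uqcr11 (-0.31 ± 0.071, SE). Of 11 nuclear complex IV genes 2 were lower, Cox6b1 (-0.16 ± 0.045, SE) and Cox7c (-0.14 ± 0.044, SE). Of 15 nuclear complex V genes 3 were lower, Atp5j (-0.32 ± 0.063, SE), Atp5h (-0.22 ± 0.05, SE) and Atp5c1 (-0.19 ± 0.04, SE). No gene of these lists was called higher. The median log2 folds were -0.06 for complex II, -0.10 for complex III with cytochrome c, -0.05 for complex IV and -0.09 for complex V, and these medians were not compared by a test.

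**Figure D4:**
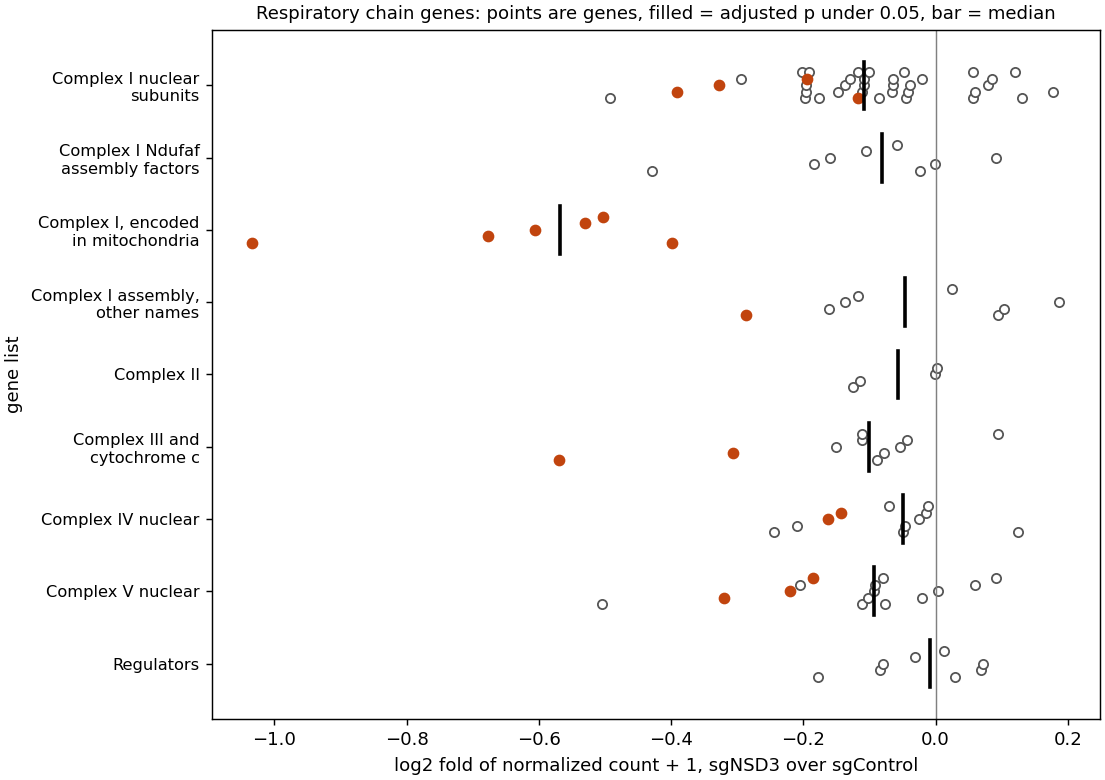
Log2 fold of normalized count + 1 (x axis), libraries labelled sgNSD3 over sgControl, for tested genes of each list (y axis). Points are genes, filled where the adjusted p was under 0.05, and bars are list medians. The 6 mitochondrially encoded subunits are all filled and lie left of every nuclear list median, and the bars of the nuclear lists lie between -0.11 and 0.

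None of 8 tested regulators of mitochondrial gene expression was called. Tfam, which packages and transcribes mitochondrial DNA, had 421, 425 and 421 normalized counts in the libraries labelled sgNSD3, against 518, 475 and 444 in sgControl (log2 fold -0.18 ± 0.065, SE; limma adjusted p = 0.0808). Tfam did not overlap between the conditions, and its SD was 2.22 normalized counts in the libraries labelled sgNSD3 and 37.5 in sgControl. Nrf1 and Yy1, which bind promoters of many respiratory genes, had folds of -0.08 ± 0.053 and -0.03 ± 0.042 (SE). Esrra was at 0.01 ± 0.068 and Pprc1 at 0.03 ± 0.036 (SE). Ppargc1a, the coactivator of mitochondrial biogenesis, had at most 8.8 normalized counts in any library and was not tested.

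For chromatin, the authors' deposited table holds signed scores over gene bodies, in 1 column for H3K27me3, a mark of Polycomb repression, and 2 columns for H3K36me2. The libraries behind each column are not stated, so the columns give no change between conditions and no error. Gene bodies were listed for 45 of the 49 members, and Ndufb4c, Ndufaf8, Ndufa11b and Ndufs6b had none. Of 45 members in the authors' deposited table, 43 were above 0 in each H3K36me2 column, which is 95.6%, against 89.4% and 92.4% of all 22470 gene bodies and 93.3% and 96.5% of the 12615 whose RNA was tested. In the second column the members' share was thus below that of gene bodies with tested RNA. The member medians in the authors' deposited table were 0.0773 and 0.134 for H3K36me2, close to the 0.0757 and 0.125 of all gene bodies.

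H3K27me3 scores of the members were mostly below 0. In the authors' deposited table the member median was -0.0467, with 11.1% above 0, against -0.0258 and 31.5% for all gene bodies. Among gene bodies whose RNA was tested and whose span was up to the median span of the members, the authors' deposited table gave a median of -0.0463, with 13.3% above 0. The authors' deposited table had 2 members that stood apart, Ndufa10 and Ndufb7, at 0.139 and 0.131, above 94.5% and 93.6% of all gene bodies. The lowest H3K27me3 scores in the authors' deposited table were -0.18 for Ndufaf1, -0.112 for Ndufs8 and -0.094 for Ndufa3.

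Within the members the columns for H3K36me2 in the authors' deposited table ranked genes differently, with Spearman's rho of 0.157 over 45 gene bodies and 0.223 over all 22470. Ndufv1 (0.256 and 0.341) and Ndufb9 (0.218 and 0.388) were the highest members in both columns of the authors' deposited table. The lowest were Ndufb10 (-0.0951) in the first column and Ndufaf1 (-0.0223) in the second column of the authors' deposited table. The members called lower in RNA lay on both sides of the member medians in each H3K36me2 column, and at neither end of the range. In the authors' deposited table the H3K36me2 scores were 0.088 and 0.0793 for Ndufs6, 0.0369 and 0.134 for Ndufv2, and 0.039 and 0.209 for Ndufa13. Across 44 members with both measures, Spearman's rho between the scores of the authors' deposited table and the RNA log2 fold was 0.049 and 0.077 for H3K36me2 and 0.17 for H3K27me3. These points share libraries, and such weak correlations are no finding.

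**Figure D5:**
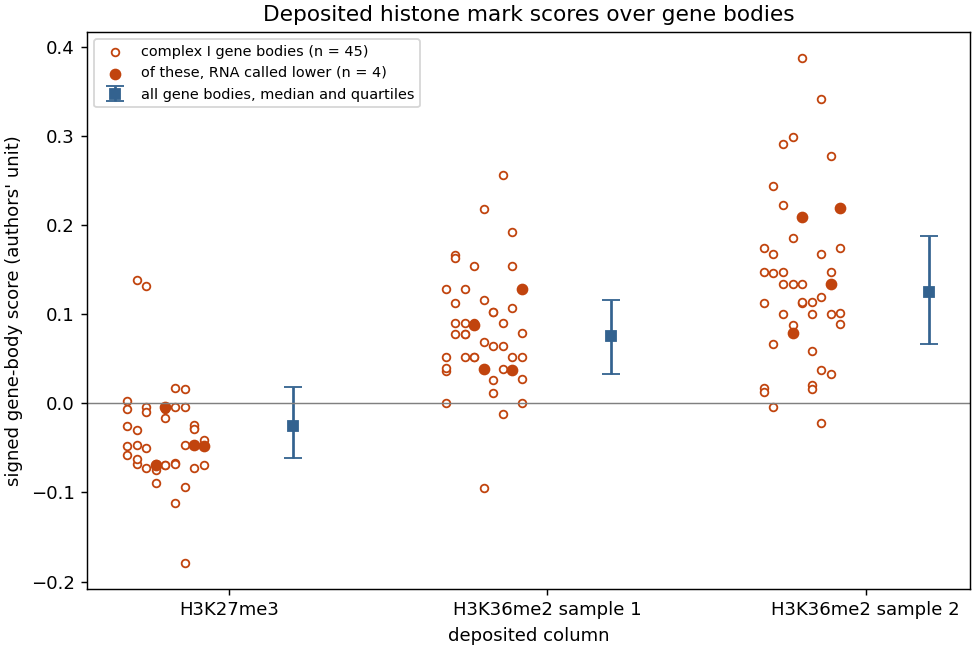
Signed gene-body scores (y axis, the authors' unit) in the 3 columns of the authors' deposited table (x axis). Circles are the 45 complex I gene bodies, filled for the 4 whose RNA was called lower, and squares with bars are the median and quartiles of all 22470 gene bodies. The circles lie around the squares in the H3K36me2 columns and mostly below 0 for H3K27me3.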

How the data were processed

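The authors deposited DESeq2-normalized log2 expression values for total RNA-seq libraries; HISAT2, featureCounts, DESeq2 and mm10 come from the submitters' processing notes, and no versions are named there. The RNA samples carry a chromatin extraction text, so the RNA protocol is not known. The lowest deposited log2 value, 8.451, stands for 0, and inverting the scale gave whole reads within 0.05 for 100% of values above 0. Genes averaging at least 8 normalized counts were tested with limma 3.58.1 (R 4.3.3, eBayes with a trend) on the deposited log2 values, without a replicate block, with Benjamini-Hochberg adjustment. Folds with SE used log2(normalized count + 1). The per-library counts are not per length, so levels of different genes were not compared. Normalized counts assume that most genes did not change.

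The signed chromatin scores are in a deposited table of gene bodies. The making of the scores is not stated, and no score belongs to a single library, so no test between conditions was run. Members and lists were chosen with earlier results of these data known. Values per library are given for members called, the core subunits, the 4 largest rises and falls on the deposited log2 scale (on log2(normalized count + 1) the extremes include low-count members such as Ndufb4c), the 3 highest means, Ndufa4 and Ndufa4l2. The values of 1 member that this rule names are not reported here, although it is counted. Other members given with values were chosen after their values were seen. The fit was tested on simulated data, in which only genes averaging at least 32 normalized counts were changed. Alternatives changed the filter, pseudocount, normalization, trend, replicate block and libraries.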

Additional observations from a re-analysis of the deposited data

How the results depend on the processing

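Of 16 alternative analyses, 0 called any complex I member higher. The log2 fold kept its sign in every alternative for 35 of the 47 tested members. It took the other sign in 1 to 3 alternatives for the other 12, none of which was called: Ndufa7, Ndufa8, Ndufa10, Ndufb3, Ndufb5, Ndufb10, Ndufc1, Ndufaf1, Ndufaf4, Ndufaf5, Ndufaf7 and Ndufs6b. Members called lower numbered 3 or 4 under the other filters, pseudocounts, normalizations, voom on the recovered counts and eBayes without a trend. Leaving out 1 library gave 2 to 7 members called lower: 2 without sgNSD3 replicate 1, sgNSD3 replicate 2 or sgControl replicate 2, and 7 without sgControl replicate 3. The cause of this range was not tested. Ndufs6 was called in 16 of 16 alternatives, Ndufv2 in 15 and Ndufa13 in 12. The median log2 fold of the members ranged from -0.13 to -0.07, and that of all genes from -0.01 to 0.01.

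With a replicate block by the numbers in the titles, 6 members were called lower, adding Ndufa3 and Ndufs8. With a replicate block by the numbers of the columns, 4 were. All genes called numbered 1119 higher and 1333 lower with the title block, and 919 and 1086 with the column block. Without a block, they were 994 and 1176. Deviations of same-numbered libraries correlated at 0.046, 0.0163 and -0.0134 by title and -0.0663, -0.00654 and -0.0397 by column. With so few libraries, these values cannot decide whether either numbering pairs the samples. Over all genes, leaving out an sgNSD3 library reduced the genes called to between 641 and 658 higher and 707 and 774 lower, against 994 and 1176 with all 6. Leaving out an sgControl library gave 758 to 993 higher and 938 to 1164 lower. The gene-body medians did not change when only the subunits were kept, which are 36 of the same 45 gene bodies. Leaving out scores of exactly 0 could not change them, since no member had such a score. With 3 libraries in each condition, the SE of the log2 fold was 0.41 for Ndufb4c and 0.42 for Ndufs6b, which had few counts. Detection of small folds in genes with few counts was not tested.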

Other observations

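The 2 symbols with -ps that were left out also had values. Ndufb1-ps, which RefSeq lists as a synonym of the protein-coding gene Ndufb1, had 76.5, 113 and 89.0 normalized counts in the libraries labelled sgNSD3, against 125, 127 and 81.2 in sgControl (log2 fold -0.25 ± 0.16, SE; limma adjusted p = 0.351). Ndufab1-ps, a pseudogene of the acyl carrier protein gene Ndufab1, had 7.23, 7.67 and 5.87 normalized counts in the libraries labelled sgNSD3, against 4.18, 3.83 and 3.04 in sgControl. It did not pass the level filter and was not tested, and reads of such a copy are uncertain.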
